A study of Mus musculus with 4 samples.

Results

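Scavenger receptors for lipid and debris were followed in macrophages sorted from the injured sciatic nerve of young and aged mice. The group comprised 9 genes, chosen by symbol from the 24028 genes of the deposited table: Cd36, Msr1, Lrp1, Scarb1, Olr1, Stab1, Cd68, Marco and Colec12. All 9 had a row in the table. The cells came from female mice of 3 months (young) or 15 months (aged), 3 days after nerve injury, and all carried the reporters Cx3cr1-GFP+/- and Ccr2-RFP+/-, so that in both ages 1 copy of each chemokine receptor gene was replaced by a fluorescent protein. The labels call the cells macrophages positive for CCR2 and Cx3cr1. Per the series' design, 7 to 8 mice per group were pooled into 2 libraries per age, so each value is that of a pool and the spread between pools may be technical. The comparison asks how the transcripts of these cells differ between the ages.

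Scavenger receptors are surface and endosomal proteins of unrelated structure that bind modified lipoproteins, anionic lipids, dying cells and particles, and carry them into the cell. After a peripheral nerve is cut or crushed, myelin and axons beyond the lesion break down, and macrophages take up much of this lipid-rich debris together with Schwann cells. Class A receptors (Msr1, Marco, Colec12) carry a collagen-like stalk, class B receptors (Cd36, Scarb1) span the membrane at both ends and pass lipids, and Lrp1 belongs to the LDL receptor family.

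RNA was reverse transcribed with oligo-dT primers and amplified by multiple displacement before sequencing, per the labels' protocols. Values are FPKM, the reads of a gene per kilobase of its length and scaled to the reads of the library, after each value had been returned to its own library's read total (11489336 and 10765234 reads for the young and 8613360 and 9986706 for the aged libraries). All differences subtract young from aged on a scale of log2(FPKM + 1), where changes of genes with low levels come out too small. Of 10 markers of the labelled cell type, macrophages, none was at 0 in every library. The same held for the markers of other cell types, so this does not tell cell types apart. Lyz2 was at 7491 to 12267 FPKM. Of the 2 receptors named in the labels, Ccr2 was at 276 to 399.9 FPKM and Cx3cr1 at 16.1 to 19.8 FPKM. In these pooled bulk samples, fewer cells expressing a gene and less RNA per cell cannot be told apart.

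The levels of the 9 receptors spanned a 1381-fold range of means, from 666 FPKM for Cd68 to 0.482 FPKM for Marco. The order is one of FPKM, and the part of priming, amplification and gene length in differences between genes was not tested. Cd68 exceeded 99.5% of the 11656 genes with a mean of at least 1 FPKM, and made up 58.6% to 65.3% of the summed FPKM of the 9 genes in each library. Cd36, Stab1, Lrp1 and Msr1 followed at means of 104, 101, 75.4 and 75.3 FPKM, each above 93.6% or more of those genes. Scarb1 had a mean of 45.9 FPKM, Olr1 9.32 FPKM and Colec12 6.89 FPKM. The ranges over the 4 libraries did not overlap between Cd68 and Cd36, between Msr1 and Scarb1, between Scarb1 and Olr1, or between Colec12 and Marco. The ranges of neighbours overlapped within the run from Cd36 to Msr1 and between Olr1 and Colec12. Within that run Stab1 lay above Lrp1 in all 4 libraries, whereas Lrp1 lay above Msr1, and Olr1 above Colec12, in 2 of 4. Cd68 held rank 1, Scarb1 rank 6 and Marco rank 9 in every library, whereas Cd36 held rank 2 in 3 libraries and rank 5 in aged replicate 2.

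**Figure D1:**
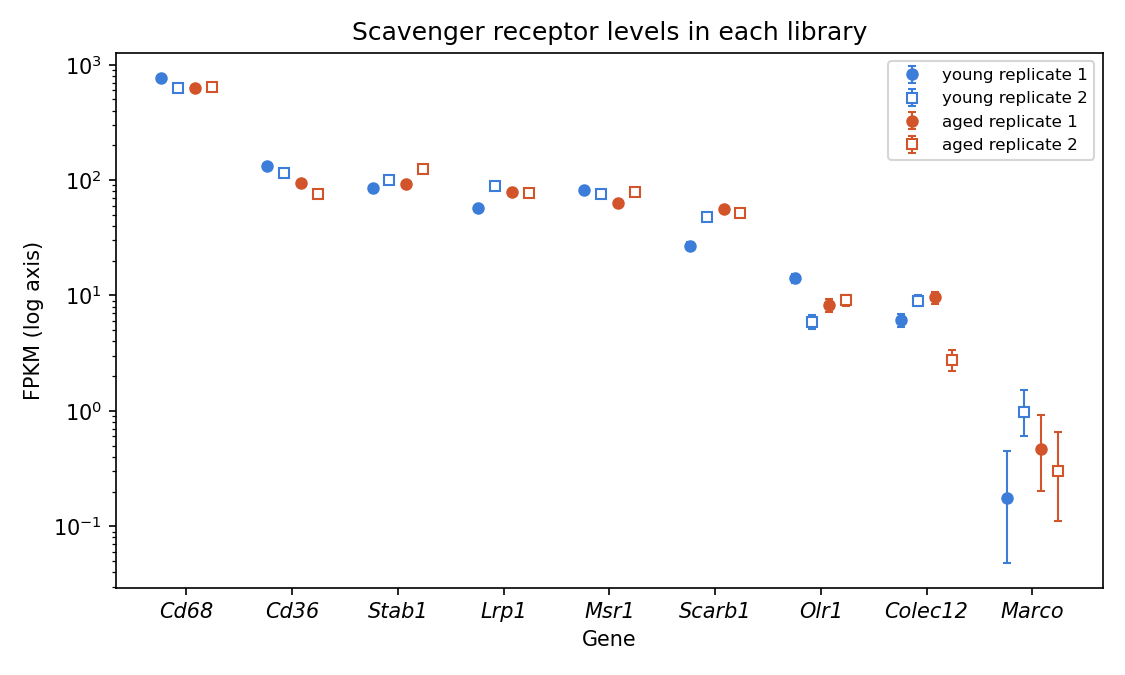
FPKM (log axis) of the 9 receptor genes in each of the 4 libraries. Bars are exact 95% Poisson intervals of the reads behind each value and cover counting error only. Cd68 lies above all other members in every library and Marco below all of them.

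Promoter sequence was available from RefSeq (GRCm38.p6) for 6 of the 9 genes (Cd36, Cd68, Lrp1, Marco, Olr1 and Stab1). The 250 bases before the transcript start on which each RefSeq window is built were searched on both strands for GAGGAA, a form of the purine-rich core bound by the myeloid transcription factor PU.1. The letters occurred in Cd68, Marco, Olr1 and Stab1, that is in 4 of 6, and in 23.3% of 32851 promoter windows of the same length genome-wide. Stretches of 60 bases are shown for the member of highest level, the member of lowest level and one between them. The capitals mark the match, which begins 225, 146 and 30 bases before that start. For Stab1 the annotated gene begins slightly upstream of it, and the stretch stops short of the gene. The stretches lie at chr11:69666361-69666420, chr1:120505138-120505197 and chr14:31168652-31168711, all on the minus strand.
Cd68: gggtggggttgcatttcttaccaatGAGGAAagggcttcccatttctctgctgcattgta
Marco: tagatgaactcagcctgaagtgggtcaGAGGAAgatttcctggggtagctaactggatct
Stab1: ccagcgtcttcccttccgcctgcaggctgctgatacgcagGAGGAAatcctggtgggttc
The same 6 letters thus stood before the start of the most and of the least abundant receptor. A match of letters describes the sequence and is no evidence of binding.

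Between the ages, 0 of the 8 receptors tested were called by limma at an adjusted p below 0.05. Over all 11656 genes tested, 0.0% were called, and 6.63% had an unadjusted p below 0.05 (773 genes). Among the receptors 1 had such a p, Cd36. Marco was not tested because its mean lay below 1 FPKM. The mean log2 value of aged cells was the lower one for 5 of the 8 and the higher one for 3, and the median difference was -0.10 beside -0.09 for all genes tested (quartiles -0.36 and 0.18). In 2 of the 8 the libraries of the ages did not overlap, Cd36 being lower and Scarb1 higher in both aged libraries. Over all genes tested, 26.2% lay lower and 11.8% higher without overlap, 38.0% in all, so the receptors' count was not above the background. With values scaled to read totals, Cd36 alone had a difference between the ages larger than the gap between the libraries of either age.

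**Figure D2:**
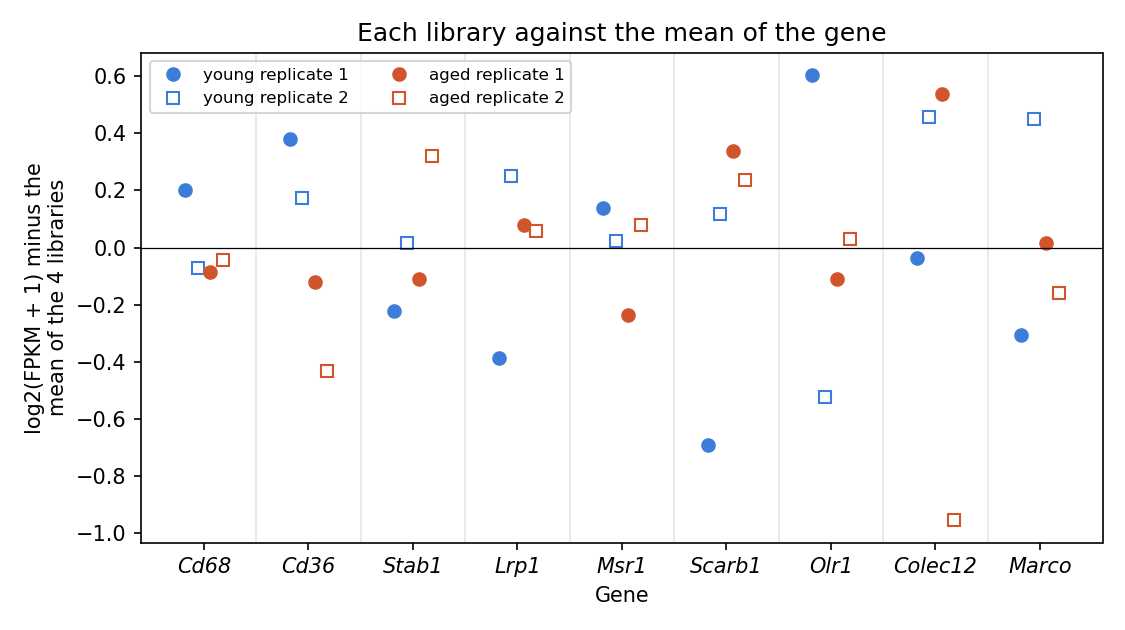
Each library's log2(FPKM + 1) minus the mean of the 4 libraries for the same gene, for all 9 receptors. Both aged libraries lie below both young ones for Cd36 and above them for Scarb1, young replicate 1 stands high for Olr1, and aged replicate 2 stands low for Colec12.

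Cd36 and Scarb1, the class B receptors, were the 2 members without overlap, 1 in each direction. Cd36 (chr5:17781690-17888959, GRCm38), which binds oxidized lipoproteins, long-chain fatty acids and thrombospondin, was 133 and 115 FPKM in young pools and 93.8 and 75.5 FPKM in aged pools. The lowest young value thus lay above the highest aged one, and the young mean was 1.47 times the aged mean (124 ± 12.8 against 84.6 ± 12.98 FPKM, SD, n = 2 libraries). The log2 difference was -0.55 (SE 0.21, 95% interval -1.08 to -0.03), with an adjusted p of 0.740 in limma's test over all genes. It kept its sign in all 12 alternatives, from -0.71 without aged replicate 1 to -0.40 without aged replicate 2. Where the ages do not overlap, leaving out 1 library cannot turn the sign. The fits without trend, with a replicate block or with another minimum leave the estimate itself unchanged. Only the scaling and the pseudocount could turn it, and it was -0.43 in the values as deposited and -0.56 with pseudocount 0.1. Its size and p depended on the processing. With median ratio scaling it was -0.44 (unadjusted p 0.206 in limma), and with quantile scaling -0.54 (unadjusted p 0.0354). The fit without trend gave an unadjusted p of 0.0956 in limma. The values rest on 2959 to 6018 reads per library, so counting error is small beside the gaps between libraries of an age. Of the 10 macrophage markers, 7 lay lower on average in aged cells and 3 higher. Without overlap 4 were lower (40%) and 1 was higher (10%), beside 26.2% and 11.8% of all genes tested. The higher one was Csf1r, at 178 and 256 against 278 and 262 FPKM. In limma 2 markers had an unadjusted p below 0.05, beside 6.63% of all genes tested. These were Itgam (log2 difference -0.72) and Aif1 (-1.11), each with an adjusted p of 0.740 in limma's test and named after their values were seen, and the part of such a change in the lower Cd36 was not tested. In the values as deposited, which are not on 1 scale, the ages overlapped (144.8 and 115 against 129 and 71.2 FPKM).

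Scarb1 (chr5:125277087-125341094), the receptor for high-density lipoprotein that takes up cholesteryl esters, was 27.0 and 48.0 FPKM in young pools and 56.2 and 52.3 FPKM in aged pools. Both aged libraries lay above both young ones, close to young replicate 2 and far from young replicate 1. The means were 37.5 ± 14.8 and 54.2 ± 2.79 FPKM, and the log2 difference of 0.57 (SE 0.30, interval -0.17 to 1.32) did not reach the 0.81 by which the young libraries differed. Its adjusted p was 0.755 (limma). Without young replicate 2 the difference was 0.98, and without young replicate 1 it was 0.17. The 2 young libraries rest on 963 and 1603 reads, and their counting intervals (25.4 to 28.8 and 45.7 to 50.4 FPKM) do not overlap.

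**Figure D3:**
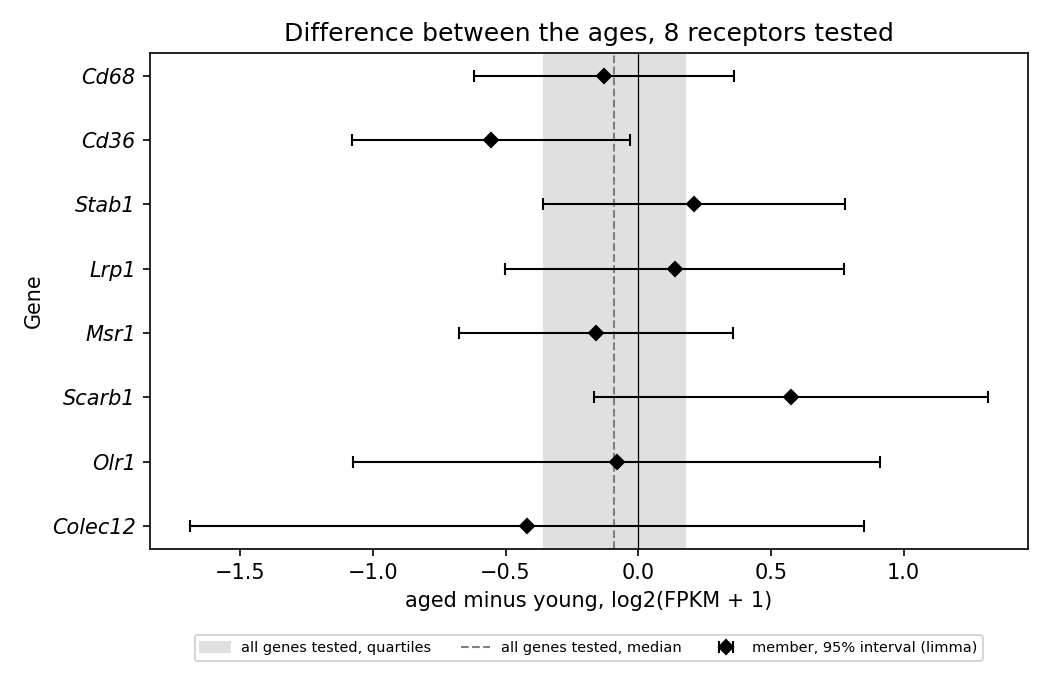
Aged minus young difference on the log2(FPKM + 1) scale for the 8 receptors tested, with limma's 95% interval. The grey band marks the quartiles and the dashed line the median of all genes tested. Only the interval of Cd36 leaves out 0, and its unadjusted p of 0.0411 became 0.740 after adjustment over all genes.

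Of the class A receptors, Msr1 was the one with a high level. Msr1 (chr8:39543232-39642750), a receptor for modified lipoproteins and many anionic ligands, was 82.5 and 76.1 FPKM in young pools and 63.4 and 79.2 FPKM in aged pools. Aged replicate 2 lay between the young values, so the ages overlapped. The log2 difference was -0.16 (SE 0.21, interval -0.68 to 0.36), and it ranged from -0.00097 without aged replicate 1 to -0.32 without aged replicate 2. Colec12, a collectin with a lectin domain that binds modified lipoproteins and is also made outside the macrophage lineage, was 6.13 and 9.03 FPKM in young pools and 9.61 and 2.77 FPKM in aged pools. The aged libraries thus held both the highest and the lowest value, 275 against 92 reads, a 3.47-fold gap beyond counting error. Its log2 difference of -0.42 (SE 0.52) turned to 0.33 without aged replicate 2 and was -1.16 without aged replicate 1. Fibroblasts are a possible source of Colec12 and Lrp1 in the nerve, and the summed FPKM of 10 fibroblast markers was 46.0 and 222 in the young and 105 and 74.7 in the aged libraries, with no marker at 0 in every library. The part of such cells in these values was not tested. Of the 50-base stretches of Colec12, 3.89% also occur in transcripts of other genes, and at most 0.0703% of those of any other receptor.

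Marco (chr1:120474538-120505024), a receptor for bacteria and particles typical of lung, spleen and lymph node macrophages, was near the limit of detection. It had 4 and 21 reads in the young and 8 and 6 reads in the aged libraries, that is 0.175 and 0.983 against 0.468 and 0.303 FPKM. The intervals of the lowest and highest library, 0.0478 to 0.449 and 0.608 to 1.502 FPKM, both belong to young cells and do not overlap. The aged libraries lay between the young ones.

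Lrp1 (chr10:127538157-127621148), an endocytic receptor for apolipoprotein E particles, for complexes of proteases with their inhibitors and for myelin debris, was 56.8 and 88.7 FPKM in young pools and 78.7 and 77.5 FPKM in aged pools. The aged pair was tight, differing 1.02-fold, and lay between the young values, which differed 1.56-fold. The log2 difference was 0.14 (SE 0.26, interval -0.50 to 0.78). It was -0.18 without young replicate 1, 0.45 without young replicate 2, and -0.50 in the values as deposited. With 10258 to 15015 reads per library, the gap between the young pools was beyond counting error.

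Stab1 (chr14:31139017-31168651), stabilin, which clears the matrix protein SPARC, modified lipoproteins and cells that expose phosphatidylserine, was 85.7 and 101 FPKM in young pools and 92.6 and 125 FPKM in aged pools. Young replicate 2 lay between the aged values, so the ages overlapped. The log2 difference was 0.21 (SE 0.23, interval -0.36 to 0.78), 0.43 without aged replicate 1 and -0.0070 without aged replicate 2. Of its exon bases, 1.09% are shared with Nt5dc2 on the opposite strand, and no label or header says whether reads were counted by strand.

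Cd68 (chr11:69664213-69666170), a glycoprotein of late endosomes and lysosomes that is used as a macrophage marker, was 764 and 631 FPKM in young pools and 625 and 644 FPKM in aged pools. Young replicate 1 was the highest library, and the other 3 lay between 625 and 644 FPKM. The log2 difference was -0.13 (SE 0.20, interval -0.62 to 0.36) and 0.0085 without young replicate 1. The interval leaves out a doubling or a halving of Cd68 between the ages, as those of Msr1, Lrp1 and Stab1 do for those genes.

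Olr1 (chr6:129479150-129507350), a lectin-like receptor for oxidized LDL that inflammatory signals induce, was 14.1 and 5.91 FPKM in young pools and 8.20 and 9.12 FPKM in aged pools. The young libraries held both extremes, 577 against 227 reads, and the aged libraries lay between them. The log2 difference was -0.08 (SE 0.41, interval -1.07 to 0.91). Its direction followed the young library that was kept, at 0.48 without young replicate 1 and -0.64 without young replicate 2. It was 0.014 with median ratio scaling and 0.029 with quantile scaling. The summed FPKM of 10 endothelial markers, a cell type that also makes Olr1, Cd36 and Stab1, was 28.6 and 27.7 in the young and 16.1 and 22.6 in the aged libraries. Without Cldn5, which was 16.9 FPKM in young replicate 1 and at most 1.48 FPKM elsewhere, it was 11.7 and 27.2 against 14.7 and 21.6. No endothelial marker was at 0 in every library, and the part of these cells in the 3 genes was not tested. For 9 neutrophil markers in the table the sum was 37.9 and 41.3 in the young and 43.3 and 46.7 in the aged libraries, of which Csf3r made up 24.3 to 29.7 FPKM. Of the 5 neutrophil markers tested, 4 lay higher on average in aged cells, none of them without overlap, and 1 lay lower. The lower one was S100a9, without overlap, at 6.48 and 3.54 against 2.22 and 1.34 FPKM. Camp, among the higher ones, was 0.291 and 0.620 against 0.582 and 9.36 FPKM, its largest value being that of aged replicate 2. The sum was, for 8 adipocyte markers, of a cell type rich in Cd36, 12.6 and 10.7 against 8.85 and 13.1. Of this sum Lipe alone was 10.0 and 7.74 against 4.78 and 7.33 FPKM, lower on average in aged cells. Plin1, the other of the 2 tested, lay higher, at 0.156 and 0.305 against 0.485 and 3.62 FPKM.

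The gaps between pools of the same age were a large share of what was seen. The median gap of the 8 receptors was 0.38 between the young and 0.22 between the aged libraries on the log2 scale, beside 0.31 and 0.35 for all genes tested. Young replicate 1 was the highest library in Cd68, Cd36, Msr1 and Olr1 and the lowest in Lrp1, Scarb1 and Stab1. Aged replicate 2 was at the other end in Cd36 and Stab1.

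Other scavenger receptors and LDL receptor family members had values of the same kind. Of 28 genes listed, 20 were tested, 0 were called in either direction by limma and 1 had an unadjusted p below 0.05. The libraries of the ages did not overlap for 2 that were higher (10%) and 5 that were lower (25%), beside 11.8% and 26.2% of all genes tested, and the median log2 difference was -0.14. The mannose receptor Mrc1 was the most abundant, at 366 and 321 FPKM in young pools and 282.3 and 281.8 FPKM in aged pools. The beta-glucan receptor Clec7a was 153 and 125 against 126 and 90.9 FPKM, and Lgals3bp, a secreted protein with a scavenger receptor domain, was 107 and 132 against 88.3 and 93.6 FPKM. Lrp6, a co-receptor for Wnt ligands, had the smallest p of the list (0.0245, adjusted p 0.740 in limma), at 15.8 and 14.1 against 7.49 and 9.43 FPKM. Cd5l, a secreted scavenger protein of macrophages, was 59.1 and 73.5 against 52.4 and 37.3 FPKM.

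Ligands, co-receptors and adaptors of the 9 receptors comprised 24 genes, of which 21 were tested and 0 were called by limma. An unadjusted p below 0.05 was found for 3 of them, beside 6.63% of all genes tested. The ages did not overlap for 1 that was higher (4.76%) and 4 that were lower (19%), beside 11.8% and 26.2% of all genes tested. Tlr6, a Toll-like receptor that signals together with Cd36, was 34.7 and 29.0 FPKM in young pools and 47.0 and 64.8 FPKM in aged pools, a log2 difference of 0.78 (SE 0.25, adjusted p 0.740 with limma). Itgb1, an integrin chain found in complexes with Cd36, was 192 and 199 against 135 and 142 FPKM, a difference of -0.49 (SE 0.19). Both of these genes had aged libraries apart from the young ones, in opposite directions. Fcer1g, a signalling adaptor that also serves Cd36, was 1122 and 779 against 745 and 577 FPKM. Thbs1, thrombospondin, a ligand of Cd36 and Lrp1, was 1258 and 686 against 901 and 877 FPKM, so that the aged values lay between the young ones. App, a ligand of Lrp1, was 494 and 476 FPKM in young pools and 467 and 478 FPKM in aged pools.

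Of 17 transcription factors linked to these receptors or to lipid sensing, all were tested and 0 were called by limma, with 0 at an unadjusted p below 0.05. None was higher without overlap and 3 were lower (17.6%), beside 11.8% and 26.2% of all genes tested. Maf, a transcription factor of macrophages, was 110 and 144 FPKM in young pools and 112 and 109 FPKM in aged pools. Nfe2l2, which encodes the oxidative stress factor Nrf2, was 312 and 190 against 248 and 251 FPKM. In both genes the aged libraries were close to each other and the young ones apart. Stat6, which carries the interleukin 4 signal, was 69.2 and 71.4 against 56.0 and 47.7 FPKM, and Mitf, a factor for lysosomal genes, was 24.7 in both young libraries against 21.3 and 18.7 FPKM.

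Genes for the storage, hydrolysis and efflux of lipid after uptake comprised 17 genes, all tested, with 0 called by limma and 0 at an unadjusted p below 0.05. Without overlap, 5 were higher (29.4%) and 1 was lower (5.88%), beside 11.8% and 26.2% of all genes tested, and the median difference was -0.02. Soat1, which esterifies cholesterol for storage, was 57.0 and 62.4 FPKM in young pools and 85.0 and 81.4 FPKM in aged pools, a log2 difference of 0.47 (SE 0.19, adjusted p 0.740 with limma). Acsl1, which activates fatty acids, was 20.5 and 28.8 against 32.3 and 42.5 FPKM. In both genes the aged libraries lay above the young ones. Lipa, the lysosomal acid lipase, was 318 and 369 against 387 and 364 FPKM, and the lipid droplet protein Plin2 was 729 and 544 against 620 and 555 FPKM. Apoe ranged from 1527 to 2845 FPKM, both extremes being aged libraries.

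**Figure D4:**
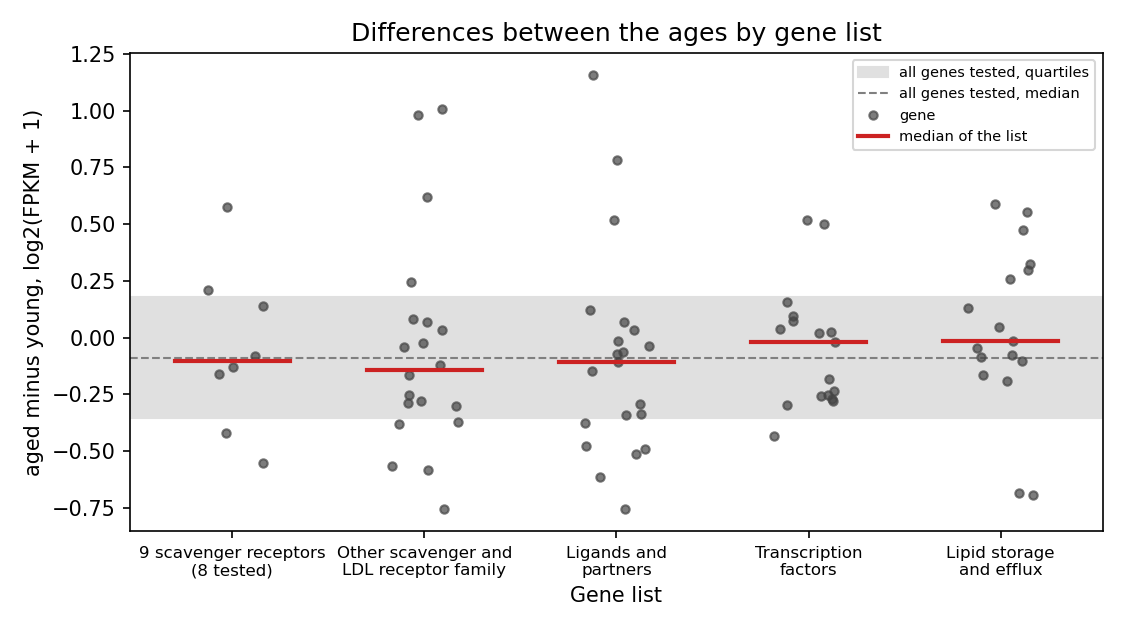
Aged minus young difference on the log2(FPKM + 1) scale for each gene tested, by list, with the median of each list as a red line. The grey band and the dashed line mark the quartiles and the median of all genes tested (-0.36, -0.09 and 0.18). The medians of the 5 lists lie between -0.14 and -0.02.

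Markers of resident macrophages, which in many tissues express Stab1, were read beside the receptors. All 10 were tested, 0 were called by limma, and 2 had an unadjusted p below 0.05, beside 6.63% of all genes tested. The mean log2 value was lower in aged cells for 9 of 10, with a median difference of -0.26 beside -0.09 for all genes tested. Without overlap 3 were lower (30%) and 1 was higher (10%), beside 26.2% and 11.8% of all genes tested. The summed FPKM of the 10 markers was 1586 and 1363 in the young and 1570 and 1281 in the aged libraries. F13a1, a transglutaminase subunit and the 1 marker that was higher, was 406 and 352 against 666 and 536 FPKM. Folr2, a folate receptor, chosen here after its values were seen, was 161 and 179 against 119 and 83.7 FPKM, and Pf4 was 402 and 241 against 253 and 179 FPKM. Mrc1, Cd163 and Timd4 stand in this list and in that of other scavenger receptors. Schwann cell markers, 10 genes, summed to 78.7 and 80.1 FPKM in young pools and to 77.1 and 60.5 FPKM in aged pools.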

How the data were processed

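The authors deposited FPKM per gene, with Entrez IDs and symbols. The submitters' processing notes name the build mm10, BWA 0.7.12, bcl2fastq and DESeq2. No source used here names the counting program or the annotation. With genes ordered by Entrez ID as text, the ratios of the columns repeat in a cycle of 12 genes. The values were taken as divided by 12 read totals in turn, as found in an earlier analysis of the same table, so that 8.33% were on the library's own total. Of these totals 4 stand at the places of these libraries, 8 belong to none of them, and their origin is not documented. Each value was therefore brought from that total to its own library's total. The median log2 ratio of the 2 libraries of an age differed by up to 1.54 between the places of the cycle before and by at most 0.06 after. This step was set after values were seen. For the 9 receptors, rescaled values were whole reads within 0.01 (largest deviation 4.8e-06) at the shortest length tried up to 40000 bases that gave them. With the library's own total alone, 0 of 9 gave whole reads. These are the smallest whole numbers possible. Poisson intervals are at 95% and cover counting error only.

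Groups and replicates come from the titles, and 0 columns belonged to other samples. limma 3.58.1 (R 4.3.3, empirical Bayes with trend) was run on log2(FPKM + 1) over genes with a mean of at least 1 FPKM, aged against young, two-sided, with Benjamini-Hochberg adjustment over all genes and a threshold of 0.05. The script was tested on simulated data. The members and lists were chosen with earlier results of these data known, so no p is given for a list. All 9 members were named. Of each other list, the 3 most abundant genes and the 2 of smallest p, and of marker lists up to 3 abundant genes, could be named, and not all are. Genes of like pattern were not sought with 4 libraries. Coordinates are from RefSeq, GRCm38.p6, the assembly called mm10.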

Additional observations from a re-analysis of the deposited data

How the results depend on the processing

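In 12 alternatives (other scaling, pseudocount 0.1, no minimum or a minimum of 5 FPKM, no trend, the replicate block, each library left out) no receptor was called by limma. Cd36, Msr1 and Scarb1 kept their direction in all 12. For Cd36 and Scarb1, whose ages did not overlap, leaving out 1 library could not turn it. The fits without trend, with the block or with another minimum left the differences themselves unchanged. With single libraries left out, differences changed sign for Cd68 (-0.27 to 0.0085), Lrp1 (-0.18 to 0.45) and Olr1 (-0.64 to 0.48), each turned without young replicate 1, and for Colec12 (-1.16 to 0.33) and Stab1 (-0.0070 to 0.43), each turned without aged replicate 2. They also turned for Lrp1 (-0.50) in the values as deposited, and for Olr1 with median ratio (0.014) and quantile scaling (0.029). The cause was not tested. The values as deposited moved the median of all genes from -0.09 to -0.31 and that of the receptors to -0.31, and left 0 receptors without overlap. Median ratio and quantile scaling gave 3 each, Lrp1 being added as higher and Cd68 as lower. Without a single library the count without overlap was 4 to 7, where an age with 1 library overlaps less by construction and is taken to vary like the other.

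Replicate 1 and 2 share only a number between the ages (correlation of deviations -0.00038 over 11656 genes). With the replicate block 1 gene passed in place of 0, Lars2 (40.6 and 78.3 against 392 and 466 FPKM, adjusted p 0.0459 with limma), and no receptor did. Unadjusted p below 0.05 were found for 381 to 1437 genes over the alternatives. With 2 pools per age and values scaled to read totals, the intervals of Cd36, Scarb1, Olr1 and Colec12 allow a doubling or a halving in at least 1 direction.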
